A study of Mus musculus with 6 samples.

Results

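The genes described here are 43 DNA repair genes, taken by name from mismatch repair, homologous recombination, damage signalling, the Fanconi anemia pathway, end joining, base excision with single-strand break repair, and nucleotide excision repair. All 43 were found among the 48526 genes of the count tables, and all 43 were among the 17571 genes with enough reads to be tested. The lowest count of any of them in any library was 161 reads. RNA was sequenced from primary renal tubular epithelial cells grown from mouse kidney cortex at 4 to 5 weeks of age, in a culture medium that held hydrocortisone (100 nM) and EGF (20 ng/ml). The 3 KO libraries came from Setd2(F/F)Ksp-Cre+ mice, in which Cre is driven by the promoter of the tubule cadherin gene Cdh16. The 3 WT libraries came from Setd2(F/F) littermates, so the floxed alleles were shared by both groups and Cre was carried by KO alone. An effect of Cre and one of the Setd2 deletion therefore cannot be told apart.

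Setd2 places trimethylation on lysine 36 of histone H3 (H3K36me3) along transcribed gene bodies. In mammalian cells the mark is known as a docking site for repair proteins: the PWWP domain of Msh6 binds it and brings mismatch repair to chromatin, and the PWWP protein Psip1 (LEDGF) binds it and helps DNA end resection for homologous recombination. Resection exposes single-stranded DNA, which is used to find the intact copy and which the kinase Atr senses, while end joining reseals broken ends directly. The Fanconi anemia proteins act at crosslinked DNA, and the excision pathways remove damaged bases or bulky lesions. Many of these genes, above all those of recombination, are transcribed most in S phase.

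Library totals ran from 86078636 to 106974842 counted reads. Setd2 was at 163, 154 and 158 CPM (read counts relative to TMM-scaled library totals) in KO replicates 1 to 3, against 185, 168 and 152 CPM in WT replicates 1 to 3, a log2 fold change of -0.08 ± 0.08 (SE). Its edgeR adjusted p was 0.481. Counts over the whole gene do not show the deleted exons, which the sources used here do not give. Markers of kidney tubule epithelium were detected for 7 of 7 genes, with a summed level of 7351 to 7428 CPM in KO and 6413 to 7453 CPM in WT. Of these, 1 rose: Cdh16, with a log2 fold change of 0.27 and an edgeR adjusted p of 0.0366. Markers of other cells were higher in KO, with sums of 151 to 184 CPM in KO and 94.1 to 97.3 CPM in WT for 6 podocyte genes (4 of 6 rose). For 6 endothelial genes (4 rose) the sums were 21.3 to 29.3 CPM in KO and 13.1 to 15.7 CPM in WT, and for 8 leukocyte genes (3 of 6 tested rose) 41.3 to 49.8 CPM in KO and 27.8 to 32.3 CPM in WT. For 7 fibroblast and pericyte genes (3 of 5 tested rose) the ranges overlapped, at 61.3 to 113 CPM in KO and 58.5 to 81.6 CPM in WT. Of 7 distal tubule and collecting duct genes 3 rose (sums of 34.6 to 40.7 CPM in KO and 19.2 to 22.5 CPM in WT), as did 3 of 4 tested proximal tubule genes (37.2 to 57.9 CPM in KO and 23.3 to 37.9 CPM in WT). Of 5 erythroid genes, 4 had no read in any library. The part of these cells in the results below was not tested. In bulk RNA, fewer cells of a type and less RNA per cell cannot be told apart. Xist, the RNA of the inactive X chromosome, stood at 507 and 606 CPM in KO replicates 2 and 3, against at most 0.683 CPM in the other 4 libraries. The Y-linked gene Ddx3y was at 0.0840 and 0.0815 CPM in those 2 KO libraries and at 51.0 to 66.9 CPM in the others, and the labels give no sex. By these 2 genes KO replicates 2 and 3 read as female and the other 4 libraries as male. Effects of sex and of KO over WT therefore cannot be fully told apart. The labels do not say which replicates came from different animals. The Xist and Ddx3y values differ between KO replicate 1 and KO replicates 2 and 3, whereas nothing used here separates the animals of the other replicates, so p-values measure the spread between these libraries, which may be partly technical.

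Of the 43 repair genes, 9 fell and 1 rose in edgeR's quasi-likelihood test at an adjusted p below 0.05, and 33 did not pass. The genes that fell were Fancd2, Chek1, Rad54l, Fanci, Xrcc2, Fanca, Chek2, Atr and Xrcc6, and the one that rose was Ercc1. Among all tested genes 9.08% were called lower and 12.0% higher, against 20.9% and 2.33% of the repair genes. The share called in either direction was 23.3% for the repair genes, near the 21.0% of all tested genes. The split between lower and higher calls was not tested over the list, and it was 1 lower and 1 higher both when the 2 Xist-positive libraries got a term of their own and when they were left out. DESeq2 called 10 of the 43 lower and 1 higher, beside 9.54% and 12.3% of all genes it tested (21.9% in either direction), and limma-voom called 9 lower and 1 higher, beside 8.81% and 11.8% (20.6%). In the 9483 tested genes within the repair genes' range of mean CPM, 13.0% were called lower and 11.5% higher. The median log2 fold change was -0.14 over the 43 genes, -0.04 over the genes in that range and -0.01 over all tested genes. The fold change lay below 0 for 34 of the 43 (79.1%), against 57.0% of the genes in that range and 51.1% of all tested genes. In 19 of the 43 all KO libraries lay below all WT libraries (44.2%), against 27.9% of the genes in that range and 21.3% of all tested genes, and in 2 (Xpc and Ercc1) all KO libraries lay above (4.65%), against 18.8% of the genes in that range and 20.6% of all tested genes. The changes were small: among the genes that fell, the log2 fold change ran from -0.58 (Fancd2) to -0.27 (Xrcc6).

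The number of calls changed with the libraries used. Without KO replicate 1, or without KO replicate 3, 2 of the 43 genes were called (Fancd2 lower, Ercc1 higher), and the share of all tested genes called dropped as well, to 9.36% without KO replicate 1 and 10.8% without KO replicate 3. Without KO replicate 2, 8 were called (Atr and Xrcc6 lost), beside 15.0% of all tested genes. Without WT replicate 1, 9 were called (Atr lost), beside 20.9%. Without WT replicate 3, 10 were called (Fanca and Xrcc6 lost, Msh3 and Lig4 gained), beside 19.1%. Without WT replicate 2, 4 of the 43 were called (Fancd2, Chek1 and Rad54l lower, Ercc1 higher), beside 14.3% of all tested genes. With a term for the libraries with Xist above 10 CPM, 2 of the 43 were called, again Fancd2 and Ercc1, beside 6.62% of all tested genes, and the same 2 were called without those 2 libraries, beside 4.88%. With the replicate number as a block, 9 were called beside 20.5% of all tested genes. Fewer libraries can also lower the number of calls, and their part in these numbers was not tested. Without 1 library the share of all tested genes called ran from 9.36% to 20.9%, against 21.0% with all 6 libraries. Over the 17 alternative settings the log2 fold change ran from -0.46 to -0.31 for Chek1, from -0.45 to -0.32 for Rad54l and from -0.40 to -0.32 for Xrcc2. Each of the 10 genes kept its direction in all 17 alternative settings, and Fancd2 and Ercc1 were called in all 17. The 10 genes were chosen by their calls in these same libraries, and KO and WT did not overlap for any of them. Leaving out libraries could therefore hardly turn their direction, and the kept direction is no separate support.

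**Figure D1:**
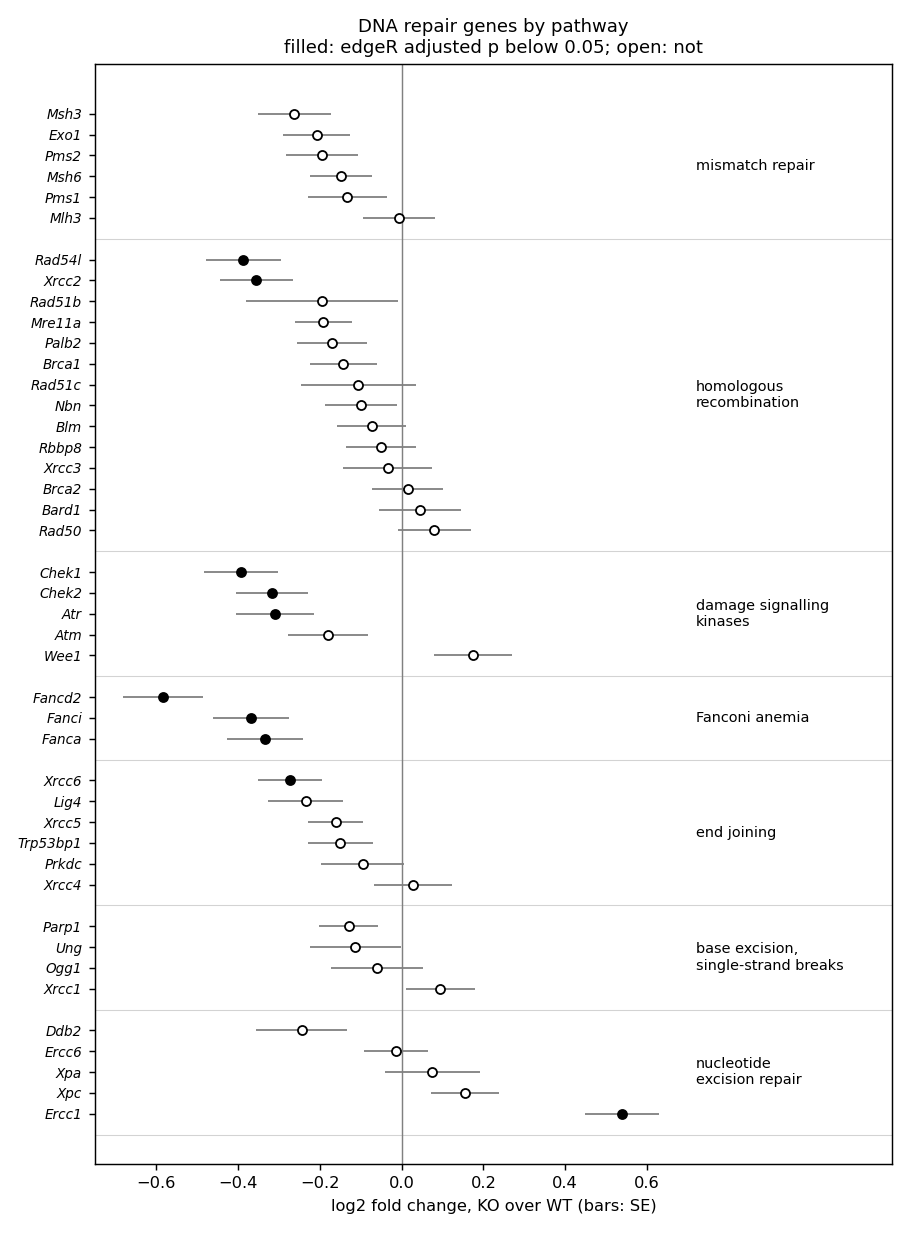
Log2 fold change of each of the 43 repair genes, KO over WT, with its standard error, grouped by pathway. Filled points passed the edgeR test, and 34 of the 43 points lie left of 0.

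**Figure D2:**
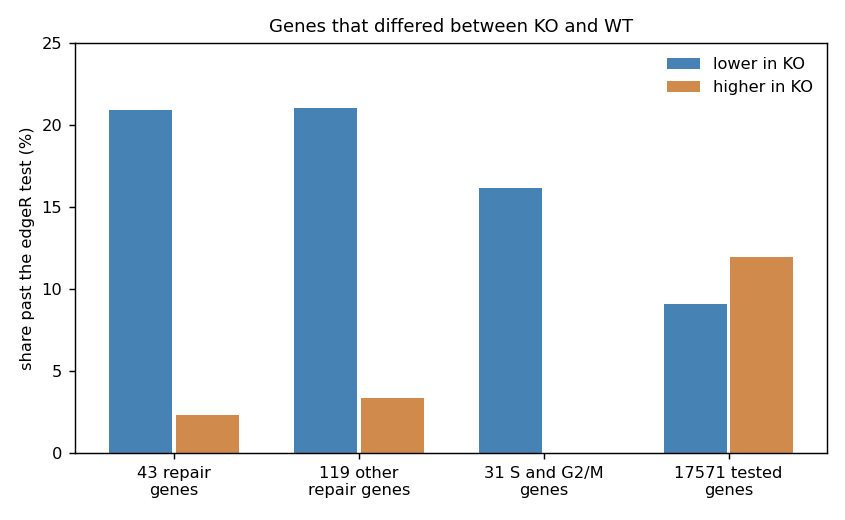
Share of genes called lower and higher in KO by edgeR, in percent, for 43 repair genes, 119 other repair genes, 31 genes of S and G2/M phase and all 17571 tested genes. Lower calls reach 20.9% of the 43 repair genes and 9.08% of all tested genes.

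The 3 Fanconi anemia genes all fell. Of all tested genes 9.08% were called lower, and of those in the repair genes' range of level 13.0%. Fancd2 (chromosome 6, 113531682 to 113597017, mm10), which is ubiquitinated at stalled forks and crosslinks, had 16.8, 19.9 and 16.5 CPM in KO replicates 1 to 3, against 26.8, 24.9 and 28.0 CPM in WT replicates 1 to 3. Every KO library lay below every WT library, and Fancd2 had the largest decrease of the 43 genes, a log2 fold change of -0.58 ± 0.10 (SE) with an edgeR adjusted p of 0.00228. Expressed as a percentage of the WT level, it fell by 33.2%. Fanci (chromosome 7, 79391929 to 79450264), the partner that forms a clamp on DNA with Fancd2, had 17.2, 18.1 and 15.0 CPM in KO and 22.2, 21.6 and 21.0 CPM in WT, a log2 fold change of -0.37 ± 0.09 with an edgeR adjusted p of 0.018. Fanca (chromosome 8, 123268300 to 123318576), a subunit of the core complex that ubiquitinates this pair, had 31.4, 32.7 and 28.3 CPM in KO and 35.7, 38.0 and 42.7 CPM in WT. Its log2 fold change was -0.33 ± 0.09 with an edgeR adjusted p of 0.0278. The groups did not overlap for either gene, and KO replicate 3 was the lowest KO library for all 3 genes. Summed per length, the 3 genes stood at 8.65 ± 0.734 RPKM (CPM per kilobase of exon) in KO and 11.5 ± 0.452 RPKM in WT (SD, n = 3 each), 0.751 times the WT level. The exons of Fanci share 16.0% of their length with the oppositely oriented Polg, and those of Fanca share 10.5% with Zfp276. Neither neighbour passed the test (log2 fold changes of -0.06 for Polg and 0.00 for Zfp276).

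Of 14 other genes of the Fanconi anemia pathway, 4 fell (28.6%, beside 9.08% of all tested genes). Fancl, the ubiquitin ligase subunit, was at 5.45 ± 0.623 CPM in KO and 8.33 ± 0.646 CPM in WT (SD, n = 3 each), a log2 fold change of -0.61. Fancc, another core subunit, had a log2 fold change of -0.48, the translocase gene Fancm one of -0.40 and the nuclease gene Fan1 one of -0.32. Their edgeR adjusted p-values ran from 0.00507 to 0.044. No gene of these 14 was called higher by edgeR, DESeq2 or limma-voom, and 0 had an unadjusted p below 0.05 in that direction.

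**Figure D3:**
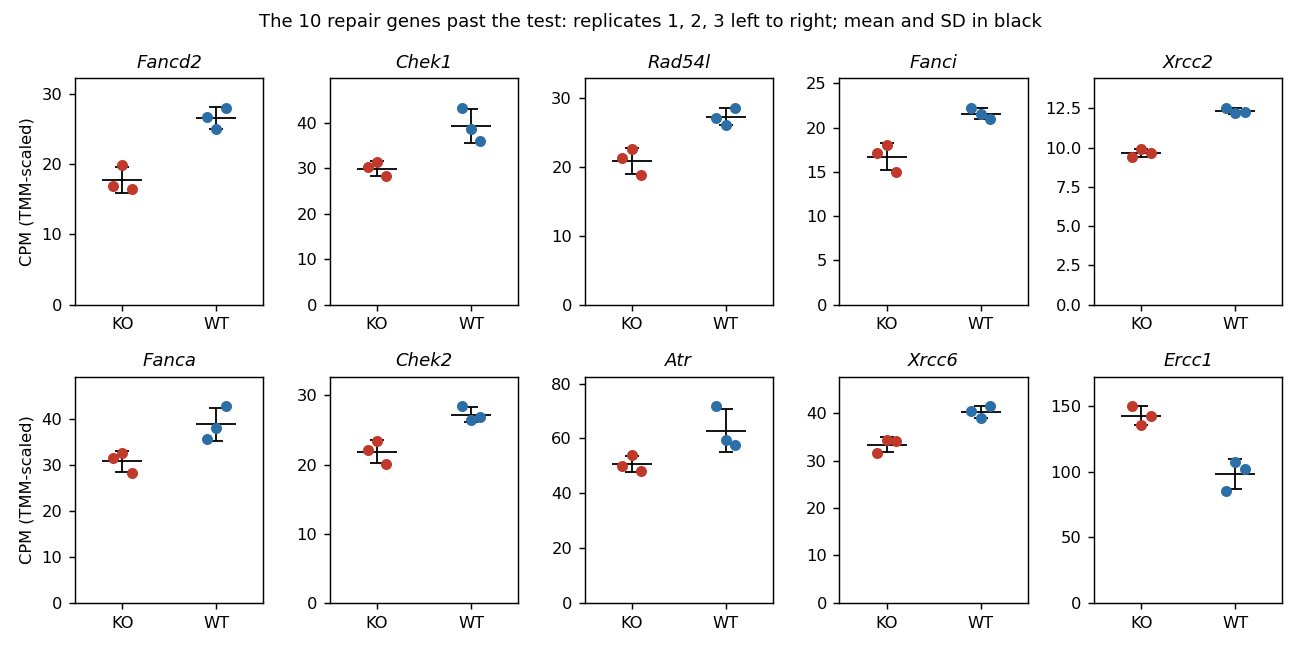
CPM in each library for the 10 repair genes past the edgeR test, KO left and WT right, with mean and SD over 3 libraries in black. For each of the first 9 genes every KO point lies below every WT point, and for Ercc1 every KO point lies above.

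Damage signalling followed, with 3 of 5 kinase genes lower (60%). The share was 9.08% of all tested genes and 13.0% of those in the repair genes' range of level. Atr, the kinase that senses single-stranded DNA at stalled forks (chromosome 9, 95857597 to 95951781), had 50.1, 53.9 and 48.1 CPM in KO and 71.7, 59.3 and 57.5 CPM in WT. WT replicate 1 stood well above the other WT libraries. The log2 fold change of Atr was -0.31 ± 0.09 with an edgeR adjusted p of 0.0385, and without WT replicate 1 it was -0.19 with an edgeR adjusted p of 0.0691 (range over 17 alternative settings 0.00415 to 0.286). Its exons share 1.96% of their length with the antisense gene Gm16794, which was also called lower (log2 fold change -0.92, 184 reads in all). Chek1, the kinase that Atr activates (chromosome 9, 36708482 to 36727065), had 30.4, 31.3 and 28.2 CPM in KO and 43.3, 38.7 and 36 CPM in WT, a log2 fold change of -0.39 ± 0.09 with an edgeR adjusted p of 0.0117. Chek2, which Atm activates after double-strand breaks (chromosome 5, 110839979 to 110874145), had 22.1, 23.4 and 20.1 CPM in KO and 28.4, 26.4 and 26.9 CPM in WT. Its log2 fold change was -0.32 ± 0.09 with an edgeR adjusted p of 0.0254. The groups were separate for all 3 genes. Atm itself, the kinase of the double-strand break response, was at 46.5, 49.3 and 46.0 CPM in KO and 61.9, 51.3 and 47.5 CPM in WT, so that the groups overlapped, and its edgeR adjusted p was 0.209. Wee1, which holds Cdk1 inactive before mitosis, was the one kinase of the 5 with a positive log2 fold change, 0.17 ± 0.09, and did not pass (edgeR adjusted p = 0.206).

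Of 17 other genes of damage signalling, 4 fell and 2 rose (23.5% and 11.8%, beside 9.08% and 12.0% of all tested genes). Rad1 and Hus1, subunits of the clamp that activates Atr with Rad9, had log2 fold changes of -0.50 and -0.31 with edgeR adjusted p-values of 0.00756 and 0.0173. Rad9a, the third subunit of the same clamp, rose, with 23.9, 22.5 and 24.0 CPM in KO and 16.2, 19.7 and 19.1 CPM in WT (log2 fold change 0.36, edgeR adjusted p = 0.0223). Mdc1, the scaffold that reads phosphorylated H2AX, also rose, to 99.9 ± 0.421 CPM in KO, against 82.3 ± 5.61 CPM in WT (SD, n = 3 each). The clamp genes thus moved in different directions in the same libraries.

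In homologous recombination, 2 of 14 genes fell (14.3%, near the 13.0% called lower among tested genes in the repair genes' range of level), and 0 were called higher by edgeR, DESeq2 or limma-voom or had an unadjusted p below 0.05 in that direction. Rad54l (chromosome 4, 116094264 to 116123690), a motor protein that acts on DNA during strand invasion, had 21.2, 22.5 and 18.8 CPM in KO and 27.1, 26.1 and 28.5 CPM in WT. Its log2 fold change was -0.39 ± 0.09 with an edgeR adjusted p of 0.0134. Its exons share 15.4% of their length with Lrrc41 on the other strand, which had a log2 fold change of 0.12 and did not pass. Xrcc2 (chromosome 5, 25689812 to 25705825), which acts in strand exchange, had 9.38, 9.91 and 9.63 CPM in KO and 12.5, 12.2 and 12.3 CPM in WT, a log2 fold change of -0.36 ± 0.09 with an edgeR adjusted p of 0.0173. The libraries of each group lay close together for Xrcc2 and the groups were far apart. Rad51b, Rad51c and Xrcc3, which act at the same step, did not pass and had log2 fold changes of -0.19, -0.11 and -0.03. Rad51b was the scarcest of the 43 genes, at 0.530 RPKM in KO and 0.608 RPKM in WT.

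The breast cancer susceptibility genes and their partners did not pass either. Brca1, which promotes resection, had 59.4, 62.3 and 53.4 CPM in KO and 68.3, 61.1 and 63.9 CPM in WT, with overlapping groups and a log2 fold change of -0.14 (2 SE either side: -0.31 to 0.02). Its partner Bard1 had one of 0.05 (-0.16 to 0.25). Brca2, which acts after resection, had one of 0.01 (-0.16 to 0.19), and Palb2, which bridges Brca1 and Brca2, one of -0.17. For Palb2 all KO libraries, at 12.6 to 13.0 CPM, lay below all WT libraries, at 14.0 to 14.9 CPM, but its edgeR adjusted p was 0.174.

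The Mre11a, Rad50 and Nbn proteins form one complex that recognises broken ends, and none of the 3 transcripts passed the test. Mre11a, the nuclease, was at 58.1 to 60.9 CPM in KO and 66.2 to 70.3 CPM in WT, without overlap (log2 fold change -0.19, edgeR adjusted p = 0.0703). Rad50 had a log2 fold change of 0.08 with overlapping groups, and Nbn one of -0.10. Per length, WT levels of the complex were 11.4 RPKM for Mre11a, 17.2 RPKM for Rad50 and 13.7 RPKM for Nbn. Rbbp8 (CtIP), which starts resection with this complex, and the helicase gene Blm had log2 fold changes of -0.05 and -0.07 and did not pass. In sum per length, the 14 genes were at 77.2 ± 2.43 RPKM in KO and 81.4 ± 4.99 RPKM in WT (SD, n = 3 each), a difference within the spread of the libraries.

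Of 28 other recombination genes, 6 fell and 1 rose (21.4% and 3.57%, beside 9.08% and 12.0% of all tested genes). Rpa3, the smallest subunit of the complex that coats single-stranded DNA, fell by 0.45 on the log2 scale, the helicase gene Wrn by 0.36 and the helicase gene Recql by 0.28. Sfr1, an accessory factor of strand exchange, was the gene that rose, with a log2 fold change of 0.29.

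Mismatch repair had 0 of 6 genes past the edgeR test, and all 6 fold changes lay below 0. At an unadjusted p below 0.05, 3 were lower (Msh3, Pms2 and Exo1) and 0 higher. DESeq2 called 1 of the 6 (Msh3, lower) and limma-voom 0. Msh6, a subunit of the complex that finds mispaired bases, had 115, 109 and 111 CPM in KO and 135, 120 and 116 CPM in WT. The KO libraries lay below the WT libraries, but KO replicate 1 and WT replicate 3 were nearly level, and the log2 fold change was -0.15 ± 0.08 with an edgeR adjusted p of 0.185. Msh3, a subunit of the complex that finds larger loops, had 22.6, 20.6 and 20.2 CPM in KO and 27.4, 24.6 and 24.1 CPM in WT. Its log2 fold change was -0.26 ± 0.09, just short of the threshold (edgeR adjusted p = 0.0559), and it was called in 4 of the 17 alternative settings. Exo1, the exonuclease that removes the strand with the error, had a log2 fold change of -0.21 (edgeR adjusted p = 0.0901) without overlap between groups.

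The MutL genes Pms2, Pms1 and Mlh3, which act after the mismatch is found, had log2 fold changes of -0.19, -0.13 and -0.01. Per length, Msh6 stood far above Msh3, at 25.7 RPKM in KO and 28.5 RPKM in WT, against 1.88 RPKM in KO and 2.25 RPKM in WT for Msh3. Of 11 other genes that serve mismatch repair, 2 fell (18.2%, beside 9.08% of all tested genes), both subunits of the loader of the sliding clamp. Rfc4 was at 13.4 ± 2.06 CPM in KO and 20.8 ± 2.22 CPM in WT (SD, n = 3 each), and Rfc3 had a log2 fold change of -0.25.

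Since recombination and mismatch repair genes are known for S phase transcription, the promoters were searched for E2F sites, which serve genes of S phase entry. The window ran from 250 bases before to 50 bases after each RefSeq transcript start on GRCm38.p6, 300 bases in all, and 33 of the 43 genes had one. The letters searched on both strands were TTTCCCGC, TTTGGCGC, TTTCGCGC and TTTGCCGC. Of the 33 genes, 7 held at least one (Msh3, Msh6, Brca2, Bard1, Rad51c, Chek2 and Xrcc6), which is 21.2%, against 4.41% of 11803 tested genes with a promoter entry and 2.26% of all 32851 windows. Among 24 genes of S and G2/M phase with an entry the share was 29.2%, and among 95 other repair genes it was 11.6%. By expression, it was held by 2 of 7 repair genes that fell and 5 of 25 that were not called, and by 1 of 21 other repair genes that fell. The other letters searched were CCAAT, found in 57.6% of the 33 genes and 42.3% of tested genes, TTTGAA (the cell cycle homology region), found in 6.06% and 14.6%, and the palindromic NRF1 motif, found in 6.06% and 2.08%. A match is a description of the letters and not of binding. Only exact letters inside the window were counted, so a site cut by its edge is missed. The Chek1 window ends in gcgggaa, the start of GCGGGAAA (TTTCCCGC on the other strand), and was not counted. The Msh6 window is shown because Msh6 is the H3K36me3 reader among these genes, the Chek2 and Xrcc6 windows because they belong to genes that fell and hold a match, and the Ercc1 window because that gene rose and holds none. Capitals mark the E2F match, which begins 15 bases after the start in Msh6, 152 bases before it in Chek2 and 46 bases before it in Xrcc6, and each window reads 5′ to 3′ on the plus strand, which is the gene's own (RefSeq, GRCm38.p6: Msh6 chr17:87974800-87975099, Chek2 chr5:110839733-110840032, Xrcc6 chr15:82016119-82016418, Ercc1 chr7:19344821-19345120).
Msh6: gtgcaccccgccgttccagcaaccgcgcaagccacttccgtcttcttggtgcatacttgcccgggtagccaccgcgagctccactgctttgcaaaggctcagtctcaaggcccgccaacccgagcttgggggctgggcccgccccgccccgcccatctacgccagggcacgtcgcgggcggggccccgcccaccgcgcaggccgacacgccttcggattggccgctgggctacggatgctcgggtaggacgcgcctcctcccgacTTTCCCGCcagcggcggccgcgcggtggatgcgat
Chek2: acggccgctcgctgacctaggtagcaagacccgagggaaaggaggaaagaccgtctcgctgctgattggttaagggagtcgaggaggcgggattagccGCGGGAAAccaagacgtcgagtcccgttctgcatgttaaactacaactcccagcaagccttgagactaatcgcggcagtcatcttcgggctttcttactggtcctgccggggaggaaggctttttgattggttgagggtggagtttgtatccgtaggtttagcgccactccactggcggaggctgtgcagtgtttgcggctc
Xrcc6: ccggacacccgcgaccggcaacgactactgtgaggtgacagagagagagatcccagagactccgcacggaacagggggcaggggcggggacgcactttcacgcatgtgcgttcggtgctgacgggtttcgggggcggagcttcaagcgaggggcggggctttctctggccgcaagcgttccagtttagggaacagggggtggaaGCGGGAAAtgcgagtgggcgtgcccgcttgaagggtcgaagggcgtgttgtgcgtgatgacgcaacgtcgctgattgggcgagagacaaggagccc
Ercc1: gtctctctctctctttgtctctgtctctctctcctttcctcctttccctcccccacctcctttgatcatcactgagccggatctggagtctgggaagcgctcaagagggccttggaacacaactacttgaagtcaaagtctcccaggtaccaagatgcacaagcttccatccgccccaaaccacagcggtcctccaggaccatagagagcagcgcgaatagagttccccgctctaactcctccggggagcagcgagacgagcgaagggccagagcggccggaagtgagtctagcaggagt

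In end joining, 1 of 6 genes fell (16.7%, near the 13.0% called lower among tested genes in the repair genes' range of level) and 0 rose, with 3 lower and 0 higher at an unadjusted p below 0.05 and the same single call by DESeq2 and by limma-voom. Xrcc6 (Ku70; chromosome 15, 81987835 to 82040085), a subunit of the Ku ring that caps broken ends, had 31.5, 34.4 and 34.1 CPM in KO and 40.5, 39.0 and 41.4 CPM in WT, without overlap. Its log2 fold change was -0.27 ± 0.08 with an edgeR adjusted p of 0.0291. Its exons share 7.69% of their length with Desi1 on the other strand, which had a log2 fold change of -0.04. Xrcc5 (Ku80), the other subunit, was at 62.3 to 64.4 CPM in KO and 71.1 to 71.3 CPM in WT. It too showed no overlap, with a log2 fold change of -0.16 and an edgeR adjusted p of 0.105. Per length, Xrcc5 stood at 24.9 RPKM in KO and 27.9 RPKM in WT, and Xrcc6 at 7.45 RPKM in KO and 9.0 RPKM in WT.

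Lig4, the ligase of this pathway, was at 26.4 to 27.6 CPM in KO and 28.3 to 34.9 CPM in WT (log2 fold change -0.23, edgeR adjusted p = 0.0905). Its cofactor Xrcc4 had a log2 fold change of 0.03 and Prkdc, the kinase that Ku recruits, one of -0.09, both with overlapping groups. Trp53bp1 (53BP1), which protects ends from resection, had one of -0.15. Rif1, the effector of 53BP1, was the one gene called among 11 tested others of this pathway, at 111 ± 2.56 CPM in KO and 137 ± 16.8 CPM in WT (SD, n = 3 each; log2 fold change -0.30, edgeR adjusted p = 0.0311). That is 9.09% of the 11, beside 9.08% of all tested genes called lower.

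In base excision and single-strand break repair 0 of 4 genes were called by edgeR, DESeq2 or limma-voom, and 0 had an unadjusted p below 0.05. Parp1, the sensor of single-strand breaks and the most abundant of the 4, had 89.8, 97.5 and 88.8 CPM in KO and 95.0, 103 and 104 CPM in WT, with overlapping groups. Its log2 fold change was -0.13 ± 0.07 (2 SE either side: -0.27 to 0.02). The scaffold gene Xrcc1 had a log2 fold change of 0.09, the uracil glycosylase gene Ung one of -0.11 and the 8-oxoguanine glycosylase gene Ogg1 one of -0.06. Of 20 other genes of base excision, 4 fell and 1 rose (20% and 5%, beside 9.08% and 12.0% of all tested genes). Parp3, a relative of Parp1, rose, with 22.9, 19.5 and 20.3 CPM in KO and 13.7, 13.8 and 12.8 CPM in WT (log2 fold change 0.64, edgeR adjusted p = 0.00106). The glycosylase gene Neil3 had a log2 fold change of -0.54, and Smug1, another uracil glycosylase, one of -0.30.

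Ercc1 was the one repair gene of the 43 that rose. It encodes the partner of Ercc4 (XPF) in the nuclease that cuts 5′ of a lesion in nucleotide excision repair and that also acts at crosslinks. Ercc1 (ENSMUSG00000003549, chromosome 7, 19344778 to 19356524) had 150, 136 and 143 CPM in KO and 85.1, 107 and 102 CPM in WT. Every KO library lay above every WT library, and WT replicate 1 was the lowest. The log2 fold change was 0.54 ± 0.09, 1.45 times the WT level, with an edgeR adjusted p of 0.00236. Per length Ercc1 was the most abundant of the 43 genes, at 45.9 RPKM in KO and 31.6 RPKM in WT. Ercc4 had a log2 fold change of 0.02 (edgeR adjusted p = 0.875). Ercc1 shares 106 exonic bases, 3.41% of its length, with Cd3eap on the opposite strand, which was also called higher, with a log2 fold change of 0.26 (edgeR adjusted p = 0.0325). Without a stated strand setting, reads in that stretch cannot be assigned to one of them.

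The other nucleotide excision genes of the 43 did not pass. Xpc, which recognises distorted DNA, had 31.9, 32.0 and 35.3 CPM in KO and 28.9, 31.5 and 28.8 CPM in WT, without overlap (log2 fold change 0.15, edgeR adjusted p = 0.206). Ddb2, which recognises ultraviolet lesions, was at 5.64 to 6.08 CPM in KO and 6.36 to 7.60 CPM in WT, with a log2 fold change of -0.24 and an edgeR adjusted p of 0.133. Of its exon length 23.8% is shared with Acp2 on the other strand. Xpa, which verifies the lesion, and Ercc6 (CSB), which couples repair to stalled RNA polymerase, had log2 fold changes of 0.08 and -0.01. The 5 genes summed to 62.8 ± 3.01 RPKM in KO and 48.1 ± 3.56 RPKM in WT (SD, n = 3 each), 1.31 times the WT level, and Ercc1 held most of both sums. Without Ercc1 the other 4 genes summed to 16.9 ± 0.730 RPKM in KO and 16.5 ± 0.726 RPKM in WT, 1.03 times the WT level. Among 19 other genes of this pathway, 4 fell (21.1%, beside 9.08% of all tested genes). Of the 19, 0 were called higher by edgeR, DESeq2 or limma-voom and 1 had an unadjusted p below 0.05 in that direction. Ercc5 (XPG), the nuclease that cuts 3′ of the lesion, was at 26.7 ± 0.788 CPM in KO and 37.5 ± 0.958 CPM in WT (SD, n = 3 each), a log2 fold change of -0.49. Gtf2h5 and Gtf2h3, subunits of TFIIH, which opens the DNA, had log2 fold changes of -0.53 and -0.45, and Ercc8 (CSA) one of -0.41.

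**Figure D4:**
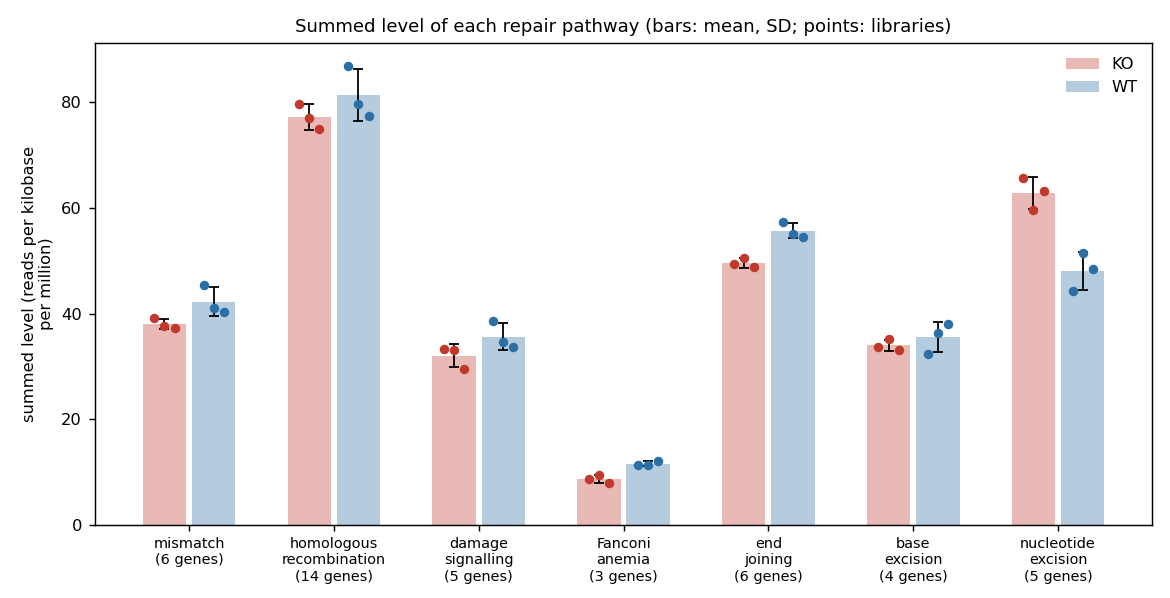
Summed level of each repair pathway in RPKM, KO left and WT right of each pair, with bars for the mean, lines for the SD over 3 libraries and points for libraries. The sum for nucleotide excision repair is 62.8 RPKM in KO and 48.1 RPKM in WT, a difference that is nearly all Ercc1, and the other 6 pathway means are lower in KO.

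Over the 119 tested genes of the wider repair lists, 25 were lower and 4 higher, that is 21.0% and 3.36%, beside 9.08% and 12.0% of all tested genes. These counts were 3 lower and 1 higher when the Xist-positive libraries got their own term, beside 285 lower and 878 higher among all tested genes. The median log2 fold change of the 119 genes was -0.13. Genes of S and G2/M phase were measured beside them, because repair genes are known to follow the cell cycle. Of 31 such genes, 5 were lower (16.1%), beside 9.08% of all tested genes and 13.0% of tested genes in the repair genes' range of level. In the other direction 0 were called by edgeR, DESeq2 or limma-voom or had an unadjusted p below 0.05. The median log2 fold change of the 31 genes was -0.08. Mcm6, a subunit of the replicative helicase, had a log2 fold change of -0.29 and Cdk1, the mitotic kinase, one of -0.32. Their summed level was 4928, 4815 and 4373 CPM in KO and 5080, 4969 and 4877 CPM in WT. KO replicate 3 was the lowest in this sum and also the lowest KO library for Fancd2, Fanci, Fanca, Chek1, Chek2, Atr and Rad54l. For Xrcc2 and Xrcc6, which also fell, KO replicate 1 was the lowest KO library. The part of the cell cycle in the repair genes' values was not tested.

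Targets of p53, the factor that the Atm and Atr kinases activate, were lower for 11 of 22 (50%) and higher for 1 (4.55%). Among all tested genes these shares were 9.08% and 12.0%. Pmaip1 (Noxa), which promotes cell death, was at 128, 134 and 109 CPM in KO and 194, 190 and 190 CPM in WT, a log2 fold change of -0.63 with an edgeR adjusted p of 0.00057. Gadd45a, a stress gene that binds Pcna, was the target that rose (log2 fold change 0.57). Among 17 readers of H3K36 methylation and their partners, 2 were lower (11.8%) and 1 higher (5.88%), beside 9.08% and 12.0% of all tested genes. The share called in either direction was 17.6%, below the 21.0% of all tested genes. Psip1, the reader tied to resection, was at 105, 104 and 104 CPM in KO and 123, 110 and 95.5 CPM in WT, with a log2 fold change of -0.07 (edgeR adjusted p = 0.62). Nsd2, a methyltransferase for lower methylation states of H3K36, had a log2 fold change of -0.25, the Polycomb-like gene Mtf2 one of -0.33 and Pwwp2b one of 0.46.

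**Figure D5:**
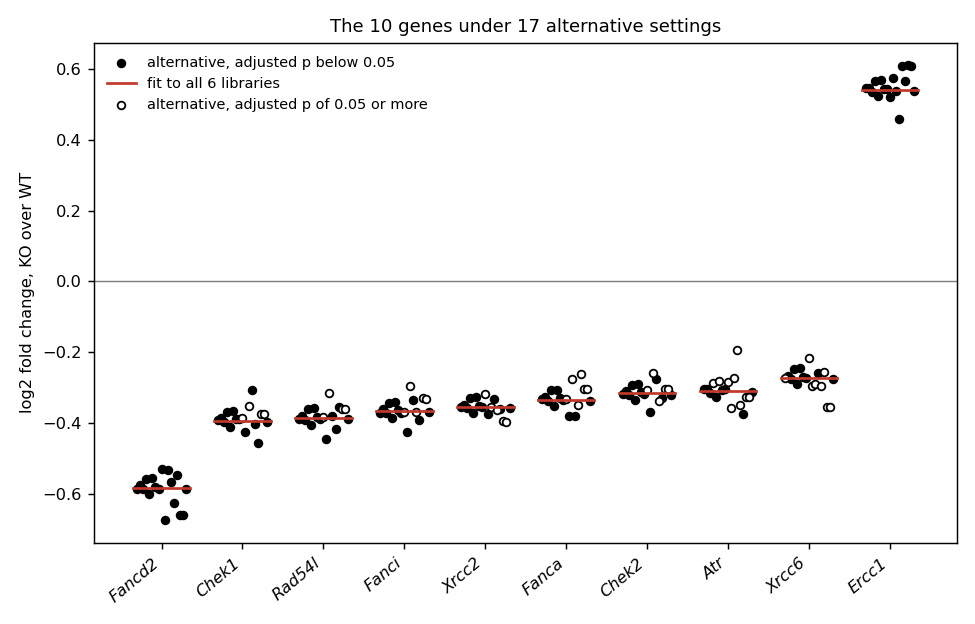
Log2 fold change, KO over WT, of the 10 called repair genes in the fit to all 6 libraries (line) and in 17 alternative settings (points). Filled points have an adjusted p below 0.05: Fancd2 and Ercc1 are filled in all 17, Atr in 8 and Xrcc6 in 9.

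Gene length and level were set beside the fold changes of the 43 genes. Across the 43 genes, which share the same 6 libraries and are not independent, Spearman's rho between log2 fold change and the span of the gene was -0.05 (Pearson's r -0.12 with the log10 span), and that between log2 fold change and mean level per length was 0.29 (Pearson's r 0.37 with the log2 level). The median span was 50.3 kb for the 9 genes that fell and 41.0 kb for the 33 that were not called, and Ercc1 spans 11.7 kb. Over all tested genes the medians were 20.8 kb for those lower in KO, 24.7 kb for those higher and 16.8 kb for those not called.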

How the data were processed

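For each library the authors deposited raw read counts, as whole numbers, by Ensembl gene ID. Per the labels' protocols, cortex was digested, strained through 40 μm and plated without a step that selects tubular cells, and TruSeq RNA libraries were made. Trimmomatic 0.38, STAR 2.7.1a, HTSeq 0.11.2 and mm10 are named per the submitters' processing notes. The sources used here do not give the annotation used for counting, the strand setting or the handling of multiply mapped reads, which affects genes with overlapping exons.

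Symbols, positions and union exon lengths came from GENCODE release M21 on GRCm38 (48144 of 48526 genes matched). Counts were tested for KO over WT with edgeR 4.0.16 in R 4.3.3 (filterByExpr, TMM factors, quasi-likelihood F test, Benjamini-Hochberg adjustment over 17571 genes, threshold 0.05). Each standard error was the size of the log2 fold change divided by the root of its F. CPM used TMM-scaled totals, and RPKM divided CPM by exon length. No replicate was a copy of another (chi-square of at least 25.4 per degree of freedom). The 43 genes and the lists were chosen with earlier results of these data known. Values are given in full for called genes, Msh6, and the most abundant gene of pathways without a call, and up to 4 called genes are named per wider list. Other genes named were chosen after their values were seen. Alternatives were a replicate block, other scaling and filters, DESeq2 1.42.0, limma-voom (limma 3.58.1), leaving out each library, and terms or exclusions for Xist and for chromosomes X, Y and M. Figures used matplotlib 3.10.9. Some genes of the wider lists are counted but not reported by name here.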

Additional observations from a re-analysis of the deposited data

How the results depend on the processing

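Leaving out 1 library gave 2 to 10 called repair genes among the 43 (1 to 9 lower), 9 to 28 other repair genes (8 to 24 lower, 1 to 4 higher) and 1683 to 3766 genes in all (455 to 1624 lower, 1228 to 2142 higher). With the Xist term 2 of the 43 were called (1 lower), with 4 other repair genes (3 lower, 1 higher) and 1163 genes in all (285 lower, 878 higher). Without the Xist-positive libraries, where the lone KO library is assumed to vary like WT, 2 of the 43 (1 lower), 2 other repair genes (1 lower, 1 higher) and 907 genes (179 lower, 728 higher) were called. These settings have fewer samples or residual degrees of freedom.

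With the replicate block 9 of the 43 genes were called (Xrcc6 was lost, with an edgeR adjusted p of 0.0503, in a range of 0.0162 to 0.195 over its 17 alternatives), beside 3594 genes in all. Same-numbered libraries did not deviate together (correlations of 0.11, -0.26 and 0.07, with 1 of 3 KO libraries closest to its own number). So few libraries cannot exclude a shared litter, culture day or batch, and the main fit used no pairing. The pathway sums kept their direction in the 13 alternatives that change scaling, genes or libraries, from -0.474 to -0.353 (log2 ratio) for Fanconi anemia, 0.342 to 0.449 for nucleotide excision repair and -0.196 to -0.014 for the other 5.

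Signs reversed only for genes that were not called. For the called genes KO and WT did not overlap, which left little room for a reversal. Mlh3 was at 0.0011 with DESeq2 size factors, 0.0189 with upper-quartile factors, 0.0222 at a mean CPM of at least 1, 0.0247 with the Xist term and 0.0235 without the Xist-positive libraries. Ercc6 was at 0.0114 and 0.0147 under those factors and that filter, and at 0.0361 and 0.0350 in the Xist settings. Rbbp8 was at 0.0090 and 0.0079 in the Xist settings, and Brca2 at -0.0030 without a filter. Leaving out 1 library moved Mlh3 between -0.0616 and 0.0639, Brca2 between -0.0511 and 0.103, Bard1 between -0.0061 and 0.146, Rad51c between -0.214 and 0.0060, Xrcc3 between -0.0929 and 0.0703, Rad50 between -0.0117 and 0.154, Rbbp8 between -0.117 and 0.0378, Blm between -0.119 and 0.0071, Prkdc between -0.161 and 0.0373, Xrcc4 between -0.0345 and 0.0757, Ogg1 between -0.158 and 0.0508, Xpa between -0.0134 and 0.167 and Ercc6 between -0.0566 and 0.0555. The causes were not tested.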
